A study of Rattus norvegicus with 20 samples.

Results

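*Arnt* and 9 genes whose products pair with it or control its partners were examined in the mPFC (medial prefrontal cortex) of rats after chronic LSD (lysergic acid diethylamide). The set was chosen by symbol from the deposited count matrix and holds *Arnt*, *Arnt2*, *Hif1a*, *Epas1*, *Hif3a*, *Ahr*, *Npas1*, *Npas3*, *Egln1* and *Vhl*, which are 10 of the 31038 genes listed. All 10 passed the low-count filter (5 or more reads in no fewer than 10 rats), which kept 16605 genes for testing. The RNA-seq libraries came from 20 male Sprague-Dawley rats, 1 library per rat, with 10 rats in the LSD group and 10 in the saline group. LSD rats received 0.16 mg/kg intraperitoneally every other day for 90 days, and saline rats received saline on the same schedule. The labels give an age of 6 to 8 weeks and a weight of 180 to 200 g at the start, and 3 weeks without drug before the brain was taken. The study's methods give a somewhat older age and a longer interval. No genetic modification was involved, and the mPFC of 1 hemisphere was dissected from frozen brain, so every library mixes the cell types of that piece of tissue.

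The proteins of the bHLH-PAS family bind DNA as pairs. A class I protein (HIF-1α, HIF-2α, HIF-3α, AHR or an NPAS protein) responds to a signal or marks a cell type, and a class II protein (ARNT, also called HIF-1β, or its paralog ARNT2, which is typical of neurons) completes the pair. HIF-1α and HIF-2α are made continuously and destroyed when oxygen is present, because the prolyl hydroxylase PHD2, encoded by *Egln1*, marks them for the ubiquitin ligase that contains VHL. The activity of the pathway is therefore set largely at the protein level, and the values below are of mRNA.

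Among the 10 genes, *Hif1a* rose in LSD rats and no gene fell. Its level was 14.8% higher, with a 95% interval of 5.02% to 25.5%. *Hif3a* was 1.65-fold higher with an adjusted p just above the threshold, whereas the class II genes *Arnt* and *Arnt2* did not pass the test. The level of *Hif1a* also moved with sequencing depth, and its difference between the groups was smaller and no longer past the threshold when depth entered the model.

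The motifs that pairs containing ARNT bind are short, and 4 promoters are shown with them, those of *Arnt*, of *Hif1a* and *Hif3a*, which had the smallest p-values of the set, and of *Egln1*, which like *Hif3a* is a known HIF target. HIF pairs bind a core written ACGTG or GCGTG, and the AHR-ARNT pair binds GCGTG. Both were searched on either strand, where they read CACGT and CACGC, in the 250 bases before the annotated start from RefSeq on the GRCr8 build. All 10 genes matched an entry, with 11 starts because *Hif3a* has 2. Capitals mark the cores in the sequences, which run 5′ to 3′ on the strand of the gene.
Hif1a (chr6:98359648-98359897, plus strand): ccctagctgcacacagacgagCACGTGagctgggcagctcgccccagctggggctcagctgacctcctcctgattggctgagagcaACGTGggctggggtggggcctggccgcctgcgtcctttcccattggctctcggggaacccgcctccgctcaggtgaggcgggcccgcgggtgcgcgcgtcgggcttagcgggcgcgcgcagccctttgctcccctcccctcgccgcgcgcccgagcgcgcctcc
Hif3a (chr1:86877839-86878088, minus strand): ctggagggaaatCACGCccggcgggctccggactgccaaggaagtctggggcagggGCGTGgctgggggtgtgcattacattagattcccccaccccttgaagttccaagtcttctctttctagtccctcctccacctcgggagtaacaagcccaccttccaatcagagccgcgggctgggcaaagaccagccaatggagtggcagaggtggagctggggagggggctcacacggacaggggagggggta
Egln1 (chr19:69804682-69804931, minus strand): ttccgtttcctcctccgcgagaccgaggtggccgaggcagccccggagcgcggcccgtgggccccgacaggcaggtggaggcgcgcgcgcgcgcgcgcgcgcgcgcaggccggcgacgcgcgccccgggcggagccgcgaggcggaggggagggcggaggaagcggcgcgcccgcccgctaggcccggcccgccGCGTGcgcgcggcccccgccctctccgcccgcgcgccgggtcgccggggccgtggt
Arnt (chr2:185686453-185686702, plus strand): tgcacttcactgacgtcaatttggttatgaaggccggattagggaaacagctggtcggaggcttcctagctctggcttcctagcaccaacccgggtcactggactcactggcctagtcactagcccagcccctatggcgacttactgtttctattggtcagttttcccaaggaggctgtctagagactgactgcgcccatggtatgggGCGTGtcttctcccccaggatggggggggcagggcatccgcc
The *Hif1a* promoter held 3 matches to ACGTG, and 2 of them form the palindrome CACGTG, in which the core is read on both strands and which begins 229 bases before the start. The other *Hif1a* core lay 164 bases before it. *Hif3a* held 2 matches to GCGTG, 238 and 194 bases before the start shown, and none before its other start. *Egln1* held 1 match to GCGTG at 56 bases and *Arnt* 1 at 42 bases. Of the others, *Npas1* held 5 matches and *Npas3* held 1, whereas *Arnt2*, *Epas1*, *Ahr* and *Vhl* held none of these letters in the window. In total 6 of the 10 genes held a core, or 6 of their 11 promoters, against 36.7% of the 33469 promoters in the table. Their promoters were GC-rich, at 57.6% to 85.2% GC against a median of 51.2% for all promoters, and the share was not compared at matched GC content. A match is a description of the sequence and does not show binding.

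Depth and tissue content bear on each comparison. Libraries of LSD rats held 16346629 to 25552681 reads assigned to genes (median 20271086), and those of saline rats held 11098076 to 24201351 (median 16815424). No pair of libraries was identical. Markers of neurons and of cortical excitatory neurons were detected in every group, and no cell type marker list had a gene at 0 in all libraries. The summed level of 6 striatum markers ranged from 201 to 435 RPM (reads relative to the total of each library, after TMM scaling) in LSD rats and from 230 to 609 RPM in saline rats. Each of the 6 had a log2 fold change below 0 (median −0.71), all 6 at an unadjusted p under 0.05 and 0 past the adjusted threshold. The sum was above 400 RPM in saline rats 2, 8 and 9 and in LSD rat 9, and the striatum borders the mPFC in the rat brain. Saline rat 9 had the lowest level of all 20 rats in 6 of the 10 genes, namely *Arnt*, *Arnt2*, *Epas1*, *Hif3a*, *Ahr* and *Npas3*. Results were also computed without these 4 libraries and with log2 depth as a covariate. Both alternatives were chosen after seeing the data.

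**Figure D1:**
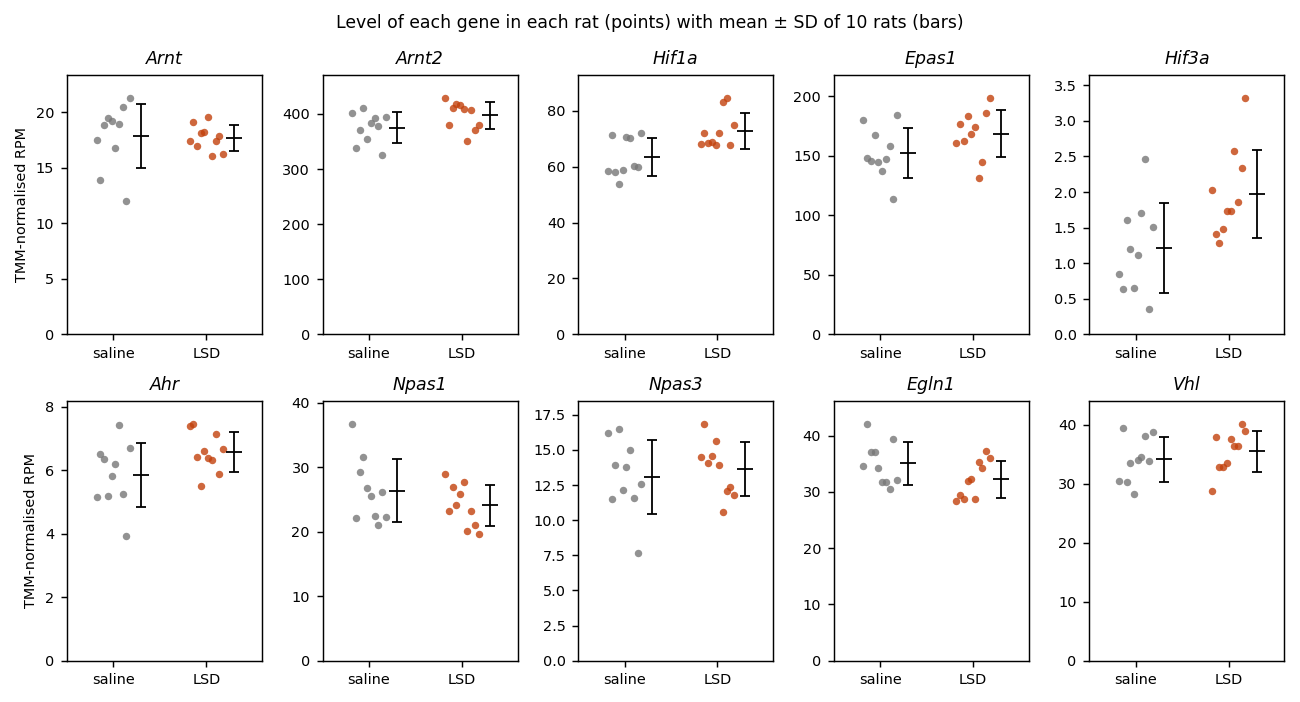
TMM-normalised RPM (y axis, from 0) of each of the 10 genes in each rat, saline in grey and LSD in orange, with the mean ± SD of 10 rats beside the points. The groups overlap in every panel, and the 10 LSD points of *Hif1a* and *Hif3a* all lie above the saline median.

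The class II partners were considered first. *Arnt* ranged from 16.0 RPM through a median of 17.7 to 19.6 in LSD rats. In saline rats it ranged from 12.0 RPM through 18.9 to 21.3. The LSD values lay inside the saline range, and the lowest value belonged to saline rat 9. Of the 10 LSD rats, 8 were below the saline median. The log2 fold change of *Arnt* was −0.01 (SE 0.083, 95% interval −0.18 to 0.16, edgeR adjusted p = 0.946), and −0.096 without the 4 libraries (adjusted p = 0.261). Its coefficient of variation was 6.41% among LSD rats and 16.3% among saline rats, a difference that was not tested. The saline spread included saline rats 2 and 9 (14.0 and 12.0 RPM), which were below every LSD rat and are both among the 4 libraries.

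*Arnt2* ranged from 351 to 428 RPM in LSD rats (median 408). In saline rats it ranged from 325 to 410 RPM (median 381). LSD rats reached higher than any saline rat in 4 cases, but the groups overlapped over most of their range. Its log2 fold change was 0.08 (SE 0.050, 95% interval −0.02 to 0.19, adjusted p = 0.272). Its direction depended on the processing, since it was −0.01 after a correction for the genomic span of genes (the distance from start to end) and 0.13 with adjusted p = 0.0426 when libraries were scaled by total counts. That scaling moved the median of all genes to 0.05.

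Because both class II proteins can serve the same partners, the balance between them was compared directly. The log2 ratio of *Arnt* to *Arnt2* reads, which carries an unknown constant for transcript length, was −4.49 ± 0.10 in LSD rats and −4.41 ± 0.19 in saline rats (SD, n = 10 each). The difference of −0.08 was within the spread between rats (two-sided exact permutation test over 184756 splits, p = 0.248, adjusted over both ratios p = 0.495). The ratio was below the saline median in 8 of 10 LSD rats. Without the 4 libraries the difference was −0.14 with adjusted p = 0.0582.

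The HIF α subunits came next. *Hif1a* encodes the oxygen-regulated subunit of HIF-1. It ranged from 67.6 RPM through a median of 70.3 to 84.4 in LSD rats. In saline rats it ranged from 53.9 RPM through 60.0 to 72.0. All 10 LSD rats were above the saline median, 4 of them were above every saline rat, and 6 saline rats were below every LSD rat, so the groups overlapped only between the lowest LSD and the highest saline value. The mean was 72.7 ± 6.29 RPM against 63.3 ± 6.82 (SD, n = 10 each), and the log2 fold change was 0.20 (SE 0.062, 95% interval 0.07 to 0.33, adjusted p = 0.0340; DESeq2 adjusted p = 0.0168). It was the only one of the 10 genes called higher by edgeR, where 6.48% of all genes were called higher and 8.54% lower. Of all tested genes 0.193% had groups that did not overlap, and none of the 10 genes did.

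*Hif1a* lost the threshold under several settings, while its direction stayed positive. Across rats, with group means subtracted, its log2 level rose with log2 depth (Pearson r = 0.62, permutation p = 0.00526, adjusted over the 10 genes p = 0.0175; Spearman rho = 0.67, permutation p = 0.00224). The correlation was 0.69 within LSD rats and 0.58 within saline rats, and 0.59 without saline rats 2 and 5, the rats farthest from the median depth. With log2 depth as a covariate the *Hif1a* log2 fold change was 0.09 and the adjusted p was 0.320. Drawing all libraries down to 11098076 reads left it at 0.21 (adjusted p = 0.0343), and without the 4 libraries it was 0.21 (adjusted p = 0.0350). With the span correction it was 0.14 (adjusted p = 0.0999). Leaving out LSD rat 7 or 8, or saline rat 1, 3, 4, 5 or 9, raised the adjusted p to between 0.0541 and 0.0703. The median depth was higher in LSD rats, as given above.

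*Epas1*, which encodes HIF-2α and is known from endothelial cells and astrocytes, ranged from 131 to 199 RPM in LSD rats (median 171). In saline rats it ranged from 114 to 184 RPM (median 148). The ranges overlapped widely, although 8 of 10 LSD rats were above the saline median. On the log2 scale the fold change was 0.14 (SE 0.080, 95% interval −0.02 to 0.31, adjusted p = 0.228). Marker sums of the cell types it is known from overlapped between the groups as well. Astrocyte markers summed to 3002 to 3839 RPM in LSD rats and 2942 to 3731 RPM in saline rats, with 1 of 8 higher. Endothelial markers summed to 241 to 316 RPM and 255 to 337 RPM, again with 1 of 8 higher. Each count was 12.5% of its list, where 6.48% of all genes were higher. DESeq2 called 1 endothelial marker higher and 1 lower, where it called 8.07% of all genes higher and 10.3% lower. In bulk tissue, a different number of cells of a type and a different amount of RNA per cell cannot be told apart.

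*Hif3a* encodes the third α subunit, of which short forms are known to restrain HIF activity. It had few reads, between 7 and 84 per rat. It ranged from 1.29 RPM through a median of 1.80 to 3.32 in LSD rats and from 0.352 RPM through 1.16 to 2.47 in saline rats. All 10 LSD rats were above the saline median and 6 saline rats were below every LSD rat, yet saline rat 8 exceeded 8 of the LSD rats. This gave a log2 fold change of 0.72 (SE 0.25, 95% interval 0.20 to 1.24, unadjusted p = 0.00881, adjusted p = 0.0551), and DESeq2 gave 0.71 with adjusted p = 0.0329. DESeq2 called 8.07% of all genes higher. In edgeR *Hif3a* was short of the threshold as reported and past it without the 4 libraries (0.64, adjusted p = 0.0480), with 1 surrogate variable (0.70, adjusted p = 0.0451) and with scaling by total counts (0.77, adjusted p = 0.0464). Without LSD rat 3 or saline rat 7, 8 or 10 it also passed, with a lowest adjusted p of 0.0162. In the other 16 of 20 cases with 1 rat left out it did not pass (highest adjusted p = 0.105). It also did not pass with reads drawn down (0.68, adjusted p = 0.106), with the span correction (0.69, adjusted p = 0.0755) or without a filter (0.74, adjusted p = 0.0717). With log2 depth as a covariate it was 0.60 (adjusted p = 0.217).

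The log2 ratio of *Hif1a* to *Epas1*, the balance between the main α subunits, was −1.21 ± 0.27 in LSD rats and −1.27 ± 0.25 in saline rats (SD, n = 10 each). The difference of 0.06 was within the spread between rats (two-sided exact permutation test, p = 0.640, adjusted p = 0.640). The smallest p this design allows is 1.08e-05.

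**Figure D2:**
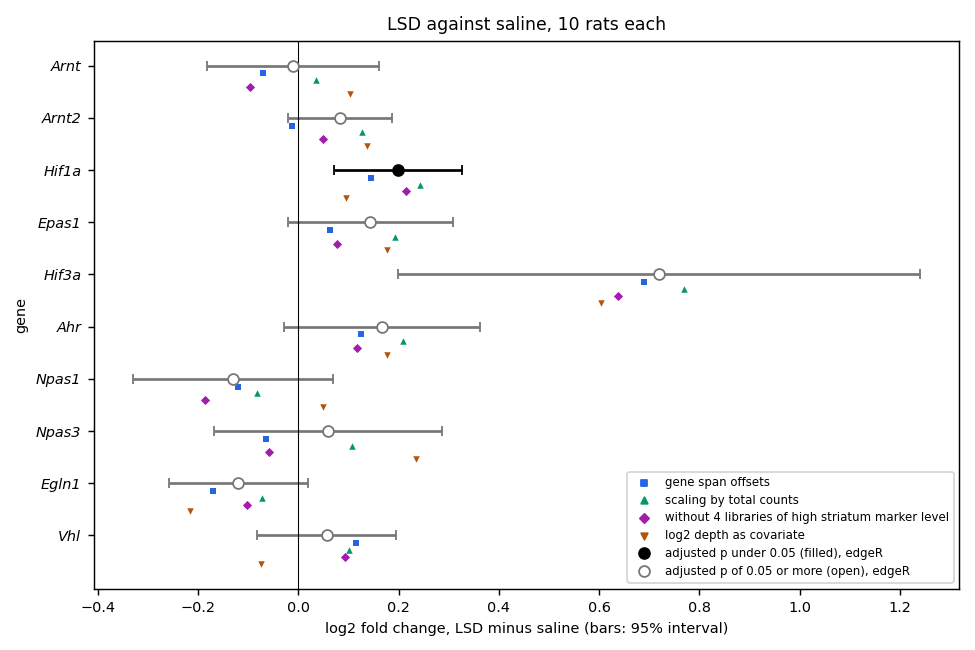
Log2 fold change of LSD minus saline (x axis) for each gene (y axis), with the edgeR estimate and its 95% interval as a circle and bar and 4 other settings as small symbols under it. The interval of *Hif1a* runs from 0.07 to 0.33 and that of *Hif3a* from 0.20 to 1.24, and with log2 depth as a covariate *Hif1a* lies at 0.09.

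*Ahr* encodes the aryl hydrocarbon receptor, the ligand-activated partner of ARNT. It ranged from 5.49 to 7.44 RPM in LSD rats (median 6.52) and from 3.93 to 7.43 RPM in saline rats (median 6.02). The highest values of the groups were nearly the same, and the saline range extended lower. Its log2 fold change was 0.17 (SE 0.095, 95% interval −0.03 to 0.36, adjusted p = 0.241).

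The neuronal members did not pass the test. *Npas1*, known from inhibitory neurons, ranged from 19.7 to 29.0 RPM in LSD rats (median 23.7) and from 21.1 to 36.7 RPM in saline rats (median 25.9). The saline range extended higher, with 3 saline rats above every LSD rat and 3 LSD rats below every saline rat. Its log2 fold change was −0.13 (SE 0.096, 95% interval −0.33 to 0.07, adjusted p = 0.381), and it was 0.05 with log2 depth as a covariate. *Npas3*, a gene of neural development, ranged from 10.6 to 16.8 RPM in LSD rats (median 14.0) and from 7.65 to 16.5 RPM in saline rats (median 13.2). Only saline rat 9 was below every LSD rat. *Npas3* had a log2 fold change of 0.06 (SE 0.11, 95% interval −0.17 to 0.29, adjusted p = 0.763), and it was −0.06 both without the 4 libraries and with the span correction.

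Of the oxygen-sensing genes, *Egln1* ranged from 28.4 to 37.2 RPM in LSD rats (median 32.1) and from 30.5 to 42.0 RPM in saline rats (median 34.4). LSD rats were above the saline median in 3 of 10 cases, and 4 LSD rats were below every saline rat. The log2 fold change of *Egln1* was −0.12 (SE 0.067, 95% interval −0.26 to 0.02, adjusted p = 0.231), and it was −0.22 with log2 depth as a covariate (adjusted p = 0.0563). *Vhl* ranged from 28.8 to 40.1 RPM in LSD rats (median 36.4) and from 28.2 to 39.5 RPM in saline rats (median 34.0). These ranges nearly coincided. *Vhl* had a log2 fold change of 0.06 (SE 0.067, 95% interval −0.08 to 0.20, adjusted p = 0.611), and it was −0.07 with log2 depth as a covariate.

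Taking the 10 genes as a list, 7 had a log2 fold change above 0 and 3 (*Arnt*, *Npas1* and *Egln1*) below it. The median was 0.07, against 0.00 for all genes tested. At an unadjusted p under 0.05, 2 were higher and 0 were lower, and DESeq2 called 2 higher and 0 lower, where it called 10.3% of all genes lower and 18.4% in either direction. In edgeR 15.0% of all genes were called in either direction.

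Levels of the 10 genes were then correlated across the 20 rats, after the group means had been subtracted, for all 45 pairs. After adjustment over the 45 pairs, 6 passed by Pearson's r and 3 by Spearman's rho in permutation tests. The closest positive pair was *Arnt2* and *Npas3* (r = 0.76, adjusted permutation p = 0.00990; rho = 0.69, adjusted p = 0.0201), and r was 0.57 without the rats farthest from the median, LSD rat 7 and saline rat 9 (permutation p = 0.0185). *Npas1* moved against *Vhl* (r = −0.72, adjusted permutation p = 0.0155; rho = −0.76, adjusted p = 0.0117; r = −0.69 without 2 rats) and against *Hif1a* (r = −0.62, adjusted p = 0.0453; rho = −0.70, adjusted p = 0.0201; r = −0.62 without 2 rats). These 3 pairs had the same sign in LSD rats and in saline rats taken alone. With the mean of same-numbered rats also subtracted (a replicate block), r was 0.83 for *Arnt2* and *Npas3* (adjusted permutation p = 0.0018). It was 0.0042 for *Npas1* and *Vhl* (adjusted p = 0.986) and −0.14 for *Hif1a* and *Npas1* (adjusted p = 0.712), so the last 2 relations were not seen under that setting.

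The remaining pairs passed by r and not by rho. *Arnt* and *Arnt2* moved together (r = 0.64, adjusted permutation p = 0.0453; rho = 0.41, adjusted p = 0.263), but without saline rats 2 and 9 the r was 0.30 (permutation p = 0.222), so that the relation rested on those rats. *Arnt* and *Egln1* moved in opposite directions (r = −0.59, adjusted permutation p = 0.0453; rho = −0.50, adjusted p = 0.156), and r was −0.40 without the same rats (permutation p = 0.0828) and −0.50 within LSD rats alone. *Arnt2* and *Egln1* had r = −0.61 (adjusted permutation p = 0.0453; rho = −0.50, adjusted p = 0.156) and r = −0.53 without LSD rat 7 and saline rat 9 (permutation p = 0.0303).

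The levels of several genes moved with depth. Besides *Hif1a*, the log2 level of *Vhl* rose with log2 depth (r = 0.75, adjusted permutation p = 0.0030; rho = 0.67) and that of *Npas1* fell (r = −0.64, adjusted p = 0.0175; rho = −0.76), making 3 of the 10 genes past the threshold by r, and 6 passed by rho, which added *Arnt*, *Npas3* and *Egln1*. After the line on depth had been subtracted, 3 pairs passed. They were *Arnt2* and *Npas3* (r = 0.69, adjusted p = 0.0417), *Hif1a* and *Ahr* (r = 0.72, adjusted p = 0.0207), and *Arnt* and *Vhl* (r = 0.59, adjusted p = 0.00720). Before that step r was 0.52 for *Hif1a* and *Ahr* (adjusted permutation p = 0.108) and −0.04 for *Arnt* and *Vhl* (adjusted p = 0.872), so neither had passed. After it *Npas1* and *Vhl* (r = −0.47, adjusted p = 0.119) and *Hif1a* and *Npas1* (r = −0.37, adjusted p = 0.366) did not pass. Over the 16 rats left without the 4 libraries 0 pairs passed, although r was 0.61 for *Arnt2* and *Npas3* (adjusted p = 0.125), −0.76 for *Hif1a* and *Npas1* (adjusted p = 0.0877) and −0.62 for *Npas1* and *Vhl* (adjusted p = 0.125). The r of the other pairs that had passed was closer to 0 in these 16 rats. It was 0.27 for *Arnt* and *Arnt2* (adjusted p = 0.567), −0.35 for *Arnt* and *Egln1* (adjusted p = 0.388) and −0.39 for *Arnt2* and *Egln1* (adjusted p = 0.383). Fewer rats entered these tests.

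**Figure D3:**
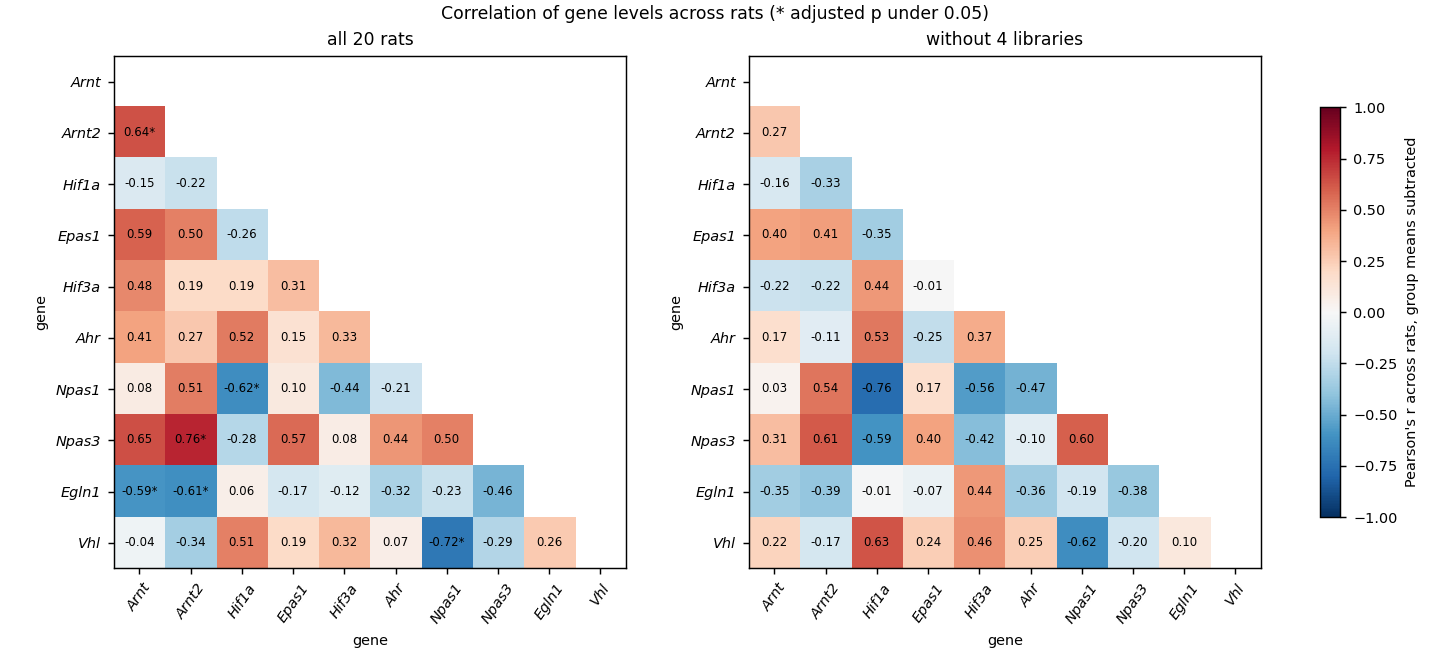
Pearson's r between the log2 levels of each pair of genes (axes) across rats with group means subtracted, for all 20 rats on the left and for the 16 rats left without the 4 libraries of high striatum marker level on the right. Colour gives r from −1 to 1 and an asterisk marks an adjusted permutation p under 0.05, with 6 marked pairs on the left and 0 on the right.

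The genes most like *Arnt* and *Hif1a* were ranked among 11415 genes with a mean of at least 5 RPM, by r across the 20 rats with group means subtracted. Those closest to *Arnt* were *Lamc1* (r = 0.94), which encodes a laminin chain, *Spen* (r = 0.92), *Ddx17* (r = 0.92), an RNA helicase, and *Bptf* and *Kmt2a* (both r = 0.91), which encode chromatin proteins. Those closest to *Hif1a* were *Stag1* (r = 0.92), a cohesin subunit, *Acvr2a* (r = 0.91), an activin receptor, *Csnk1a1* (r = 0.90), *Map4k5* (r = 0.90), both kinases, and *Ctcf* (r = 0.89), the insulator protein. Rats share their library, depth and tissue content in each of these values, and r is given as a description.

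The same r was summarised over gene lists, as a description with no test between lists. The study had placed *Arnt* among the central transcription factors of a cell-cell adhesion module built from these libraries. A positive r of *Arnt* with adhesion genes is therefore not independent of that result. The study's proposal of *Arnt* as a potential regulator of the module also drew on known *Arnt* targets from an outside database, which were not examined here. The median r with *Arnt* was 0.57 over 63 cell adhesion genes, 56 of them above 0, and −0.08 over 42 HIF target genes, against −0.00 over all genes ranked. With the span correction the median over the adhesion genes was 0.42, and with the line on depth subtracted it was 0.44. For *Hif1a*, the median r was −0.04 over the adhesion genes and 0.07 over the HIF targets. With the line on depth subtracted it was 0.34 over the adhesion genes, 50 of the 63 being above 0, and −0.01 over the HIF targets, so that both *Arnt* and *Hif1a* then had a positive median with the adhesion genes.

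The wider pathway was described by counts. Among other genes of the bHLH-PAS family, 9 of 11 were tested and 0 passed in edgeR or in DESeq2. At an unadjusted p under 0.05, *Clock*, an activator of the circadian loop, was higher and its partner *Arntl* was lower. Their log2 fold changes were 0.14 (adjusted p = 0.148) and −0.17 (adjusted p = 0.134). *Npas4*, a bHLH-PAS gene induced by neuronal activity that also pairs with ARNT proteins, stood at 0.19 (adjusted p = 0.582). With the span correction *Arntl* was lower (−0.26, adjusted p = 0.0343), and with log2 depth as a covariate *Ncoa2*, a coactivator gene named after its values were seen, was higher (0.41, adjusted p = 0.0248). *Arntl2* and *Sim1* did not pass the filter on low counts.

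Of 21 tested regulators of HIF, 1 was higher (4.76%) and 2 were lower (9.52%), shares near the 6.48% and 8.54% of all genes. Without the 4 libraries the counts were 3 and 4, and those over all genes also rose, from 1076 to 1701 higher and from 1418 to 1689 lower. *Egln2* encodes PHD1, a prolyl hydroxylase related to PHD2. It ranged from 146 to 194 RPM in LSD rats (median 169) and from 157 to 275 RPM in saline rats (median 221), and no LSD rat was above the saline median. The log2 fold change was −0.38 (SE 0.086, adjusted p = 0.00852), and −0.17 with log2 depth as a covariate (adjusted p = 0.0981). The third hydroxylase gene, *Egln3*, stood at −0.10 (adjusted p = 0.230), and *Hif1an*, which encodes the asparaginyl hydroxylase FIH, stood at 0.13 (adjusted p = 0.297). *Usp33*, a deubiquitinase gene, rose (log2 fold change 0.30, adjusted p = 0.0119), and with log2 depth as a covariate it stood at 0.14 (adjusted p = 0.119). The median of the list was 0.01.

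Among 52 tested HIF target genes, of which *Egln1* and *Hif3a* also belong to the 10, 4 were higher and 3 were lower, and 45 did not pass. The share higher was 7.69% and the share lower 5.77%, near the 6.48% and 8.54% of all genes, and the median was −0.02. Those that rose were *Kdm3a* (log2 fold change 0.25, adjusted p = 0.00773) and *Kdm4c* (0.38, adjusted p = 0.0308), which encode histone lysine demethylases, *Tfrc* (0.35, adjusted p = 0.0179), the transferrin receptor, and *Bhlhe40* (0.22, adjusted p = 0.0402), a transcriptional repressor. All 10 LSD rats were above the saline median for each of these 4 genes. Those that fell were the glycolytic genes *Aldoc* (−0.34, adjusted p = 0.00408), *Aldoa* (−0.24, adjusted p = 0.0143) and *Pgam1* (−0.17, adjusted p = 0.0420), for each of which no LSD rat was above the saline median. The best-known targets did not pass, with *Vegfa*, the angiogenic factor, at −0.03 (adjusted p = 0.814) and *Slc2a1*, the glucose transporter of the blood-brain barrier, at −0.12 (adjusted p = 0.337). With log2 depth as a covariate *Bhlhe40* (0.31, adjusted p = 0.0338) and *Aldoc* (−0.26, adjusted p = 0.0295) stayed past the threshold, whereas *Kdm3a* (0.15, adjusted p = 0.0644), *Kdm4c* (0.17, adjusted p = 0.322), *Tfrc* (0.16, adjusted p = 0.196), *Aldoa* (−0.15, adjusted p = 0.114) and *Pgam1* (−0.13, adjusted p = 0.174) did not. Without the 4 libraries *Bhlhe40* was at 0.19 (adjusted p = 0.0712).

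Of 15 AHR target genes 11 were tested, and 0 passed in edgeR, with 1 higher and 1 lower at an unadjusted p under 0.05. DESeq2 called 1 higher, *Tiparp*, which encodes a repressor of AHR. It stood at 0.47 in edgeR (adjusted p = 0.0653) and had an adjusted p of 0.0388 in DESeq2. *Cyp1b1*, a classical AHR target, stood at 0.05 (adjusted p = 0.944), with a direction that changed between settings. *Cyp1a1*, *Cyp1a2*, *Ido1* and *Il6* did not pass the filter.

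**Figure D4:**
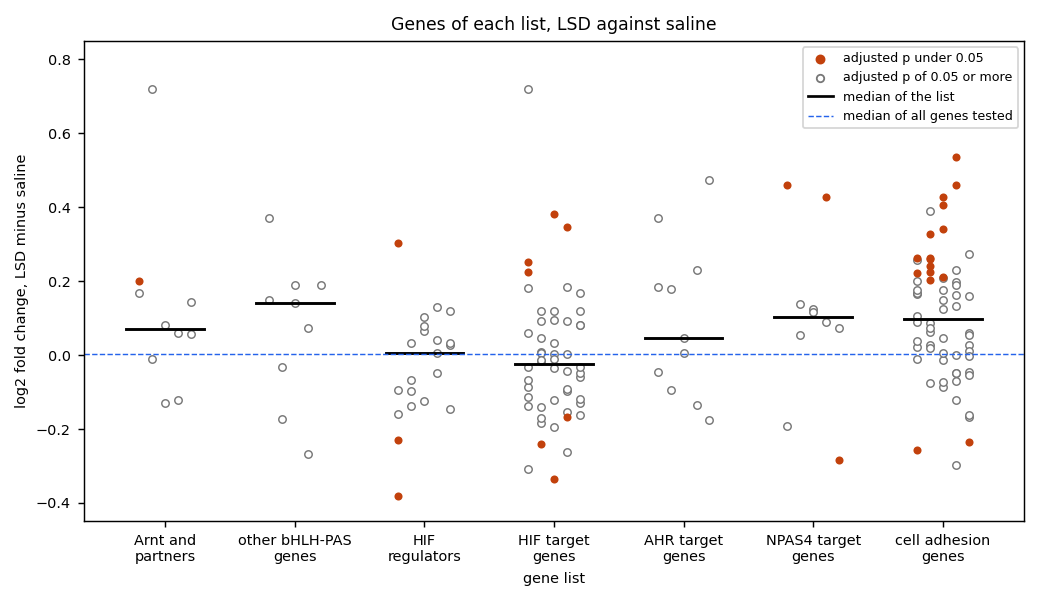
Log2 fold change of LSD minus saline (y axis) for the tested genes of each list (x axis), filled where the edgeR adjusted p was under 0.05, with the median of each list as a black line and the median of all genes as a dashed line. *Hif3a* is the highest point among the 10 genes at 0.72, and the HIF target genes spread to both sides of 0 with a median of −0.02.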

How the data were processed

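The deposited values are raw counts of all 20 libraries in 1 matrix, made by HTSeq-count. The authors used HISAT2 as the aligner, with rn6 (Rnor_6.0) as the genome, after trimming by TrimGalore. Per the labels, libraries were made from poly(A) RNA. Tool versions, the gene annotation and the strand setting are not given in the sources used here, so reads of overlapping or antisense genes could not be separated. The matrix ends with 5 entries without a gene name, holding 25.5% to 29.0% of all reads, which were left out of library sizes and tests. Groups were taken from the sample labels. The 10 genes and all lists were chosen with earlier results of these data known.

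Counts were tested with edgeR 4.0.16 (quasi-likelihood F test, TMM normalisation) in R 4.3.3 on the 16605 genes that had 5 or more reads in no fewer than 10 rats, a filter taken from the methods of the study. P-values were adjusted by Benjamini-Hochberg over these genes, with a threshold of 0.05. They set the difference between the groups against the spread between rats. Levels are TMM-normalised RPM. They are not corrected for transcript length, so levels were not compared between genes. Ratios used a prior count of 0.5 and correlations log2(RPM + 1), with 100000 permutations of rats within groups, two-sided. Figures and correlations were made in Python 3.11.15. The test was checked on simulated counts.

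Alternatives were DESeq2 1.42.0, other scalings and filters, a replicate block, 1 surrogate variable (sva 3.50.0), reads drawn down, each rat left out, and offsets from a curve over genomic span (50 bins of span on GRCr8, known for 90.0% of tested genes). Of the lists, named genes were those past the threshold, at most 6 per list and direction by p, and fixed reference genes. *Egln3* and *Hif1an* were named after their values were seen. The values of 1 gene past the threshold are not reported here. Same-numbered rats were not treated as pairs. Depth ranged from 11098076 to 25552681 reads on genes, which leaves *Hif3a* with as few as 7 reads.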

Additional observations from a re-analysis of the deposited data

How the results depend on the processing

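The count of genes higher in LSD was 1076 and lower 1418. It was 551 higher and 1158 lower with the span correction, 1701 and 1689 without the 4 libraries of high striatum marker level, 534 and 639 with log2 depth as a covariate, 1504 and 858 with scaling by total counts, and 960 and 836 without a filter. Leaving out each rat gave 663 (without LSD rat 8) to 1669 (without saline rat 2) higher and 957 (without saline rat 4) to 1907 (without saline rat 2) lower. Of the 10 genes, 1 was higher, and the count was 2 with DESeq2, 1 surrogate variable or without the 4 libraries, 3 with scaling by total counts, 0 with the span correction or depth as a covariate, and 0 to 2 with each rat left out, where the count lower was 0 to 0. HIF targets gave 4 higher and 3 lower. With depth as a covariate they gave 1 higher and 2 lower, and without the 4 libraries 6 higher and 7 lower. With 1 surrogate variable they gave 5 higher and 7 lower, where all genes gave 1582 higher and 2010 lower. With each rat left out HIF targets gave 2 to 5 higher and 2 to 5 lower. *Bhlhe40* lost the threshold without LSD rat 3, 5, 6, 8 or 10 or saline rat 1, 2, 3, 4 or 9, *Kdm4c* without LSD rat 4, 7 or 8 or saline rat 1, 4 or 9, and *Pgam1* in 14 of 20 cases, the exceptions being LSD rats 1 and 3 and saline rats 2, 7, 8 and 10. *Ptgs2* lost it without LSD rat 3, 5, 6 or 8 or saline rat 1, and *Cadm4* without LSD rat 2, 7, 8 or 10 or saline rat 1, 3, 4 or 5. The 6 correlated pairs became 2 with the span correction, 3 by Spearman, 3 with depth as a covariate, 0 without the 4 libraries and 2 to 8 with each rat left out. With the replicate block 6 pairs passed, but among them only *Arnt2* and *Npas3* had passed without it. The cause of these changes was not tested.

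Most directions that turned belonged to values near 0, while that of *Npas1* turned from −0.13. *Arnt* was 0.0055 without a filter, 0.035 with total counts and 0.10 with depth as a covariate, and −0.064 to 0.021 with each rat left out. *Arnt2* was −0.013 with the span correction. *Npas3* was −0.064 with the span correction, −0.058 without the 4 libraries and −0.0075 to 0.10 with each rat left out. *Npas1* was 0.048 and *Vhl* was −0.075 with depth as a covariate. *Vegfa* was 0.014 with total counts, 0.015 with depth as a covariate and −0.068 to 0.010 with each rat left out. *Cyp1b1* was −0.022 with 1 surrogate variable, −0.21 without the 4 libraries and −0.070 to 0.22 with each rat left out. The ratio of *Arnt* to *Arnt2* ranged from −0.12 to −0.06 and that of *Hif1a* to *Epas1* from −0.0050 to 0.093 with each rat left out.

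Same-numbered rats of the groups were checked for pairing. The correlation of their deviations ran from −0.26 to 0.47 over 10 pairs, 6 of them over 0.1, and 3 of 20 rats correlated best with their own number, so the numbers were not taken as pairs. With the replicate block 2961 genes were called, 2292 of them shared with the 2494 without it, and 2 of the 10 genes were higher. With the replicate block *Arnt* was 0.0014, *Hif3a* was 0.76 (adjusted p = 0.0387) and *Tiparp* was 0.46 (adjusted p = 0.00746). With the replicate block and the span correction the count higher among the 10 was 0, *Arnt2* was −0.013 and *Npas3* was −0.057.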

Other observations

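Cell adhesion genes, whose levels were set beside that of *Arnt* above, were also compared between the groups. The study had already reported a cell-cell adhesion module from these libraries as more active in LSD rats. The counts below are therefore not independent of that result. Of 64 tested, 14 were higher in LSD rats (21.9%), 2 were lower (3.12%) and 48 did not pass, where 6.48% of all genes were higher and 8.54% lower, and the median log2 fold change was 0.10, against 0.00 for all genes. The genes that rose with the smallest p were *Ncam2* (0.53, edgeR adjusted p = 0.00357), a neural cell adhesion molecule, the contactins *Cntn5* (0.34, adjusted p = 0.00680) and *Cntn4* (0.24, adjusted p = 0.0165), the cadherins *Cdh12* (0.46, adjusted p = 0.00697) and *Cdh10* (0.26, adjusted p = 0.0126), and *Chl1* (0.40, adjusted p = 0.0144). *Nectin2* (−0.26, adjusted p = 0.0189) and *Cadm4* (−0.23, adjusted p = 0.0296) fell. The counts were 13 higher and 0 lower with log2 depth as a covariate, and 4 higher and 4 lower with the span correction, and the count higher ranged from 11 to 16 when each rat was left out. With depth as a covariate the adjusted p was above the threshold for *Chl1* (0.0629), *Cdh10* (0.0657), *Cntn4* (0.0988), *Nectin2* (0.0972) and *Cadm4* (0.358). With the span correction it was above for *Cntn5* (0.0517), *Cdh10* (0.132) and *Cntn4* (0.176).

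Of 10 targets of NPAS4, 2 rose and 1 fell, where 6.48% of all genes were higher and 8.54% lower, with a median of 0.10. *Bdnf*, a neurotrophin gene, rose by 0.46 on the log2 scale (adjusted p = 0.00688, and 0.0526 with depth as a covariate), and *Ptgs2*, which encodes cyclooxygenase-2, rose by 0.43 (adjusted p = 0.0308, and 0.0589 without the 4 libraries). *Sst*, which encodes somatostatin and marks a class of inhibitory neurons, fell by 0.28 (adjusted p = 0.0222). It was −0.19 both without the 4 libraries (adjusted p = 0.0960) and with the span correction (adjusted p = 0.0876). Among 8 markers of inhibitory neurons, 2 were higher and 2 were lower (25.0% each, against the 6.48% and 8.54% of all genes). *Sst* belongs to this list too and is among the lower ones. Of 6 oligodendrocyte markers all had a log2 fold change below 0 and 0 passed (3 at an unadjusted p under 0.05, 1 in DESeq2), and of 6 red blood cell markers all were below 0 and 1 passed.

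No rat stood apart from its group by Dixon's test in any of the 24 groups of values tested, those of the 10 genes among them.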
